A study of Rattus norvegicus with 12 samples.

Results

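The genes described here encode inhibitors of mitogen-activated protein (MAP) kinase signalling. They are 6 dual-specificity phosphatases, Dusp1, Dusp4, Dusp5, Dusp6, Dusp7 and Dusp8, and 3 Sprouty proteins, Spry1, Spry2 and Spry4. They are listed by name and make up 9 of the 17310 genes in the files. All 9 had enough counts to be tested.

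Growth factors, neurotrophins and synaptic activity switch on the kinases ERK, JNK and p38 by phosphorylation, and the genes of many inhibitors are themselves switched on by the same kinases, which closes a negative feedback loop. Dual-specificity phosphatases remove the activating phosphates from the kinases. Sprouty proteins act further upstream, between receptor tyrosine kinases and the kinase Raf, and limit how strongly a growth factor activates ERK. Dusp1 is also a textbook target of the glucocorticoid receptor, through which glucocorticoids restrain p38 and JNK in inflammation, and in neurons it is induced by activity.

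The libraries were made from the part of the hypothalamus that holds the paraventricular nucleus, dissected from wild-type male Wistar rats at 12 weeks of age. Each of 6 groups had 2 libraries. Sham rats had the operation without removal of the adrenals, high Cort rats had 12 days of high corticosterone, the main glucocorticoid of the rat, and ADX rats were taken 7 days after adrenalectomy. Supplemented ADX rats were adrenalectomised and received corticosterone, and the 1 h acute and 3 h acute rats were taken that long after acute corticosterone. Per the labels, no group was a vehicle control. The labels also leave unstated whether the acutely treated rats still had adrenals, the doses, and whether a library came from 1 animal or a pool. The p-values therefore rest on library-to-library spread, part or all of which may be technical.

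Libraries held between 17674161 and 36249008 fragments, with 1 h acute replicate 2 the shallowest. Levels are given as CPM (counts scaled to library size) after library scaling, and differences as log2 fold change ± standard error from edgeR's quasi-likelihood test. A gene was called when its p, adjusted over the 12856 genes tested, was under 0.05. The tissue carried its neurons in every library, with Sim1, a transcription factor of paraventricular neurons, between 36.5 and 54.0 CPM. It also carried neighbouring thalamus. Tcf7l2, a thalamic transcription factor, ranged from 104 CPM in 1 h acute replicate 2 to 327 CPM in sham replicate 2, and the summed level of 13 thalamus markers from 1123 to 3300 CPM. In bulk tissue, fewer cells of a type and less RNA per cell cannot be told apart.

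Of the 9 genes, 8 had an entry in RefSeq's table of promoters (build GRCr8), which differs from the build rn6 of the deposited counts and was matched by gene symbol. Dusp4, which was called in a comparison, had no entry, and the promoters of the other called genes, Dusp1, Dusp6 and Spry4, are shown. Each is the 250 bases before the RefSeq start, read 5′ to 3′ on the gene's strand, with matches to the searched motifs in capitals. Dusp1 lies on the forward strand (chr10:17184603-17184852), Dusp6 on the forward strand (chr7:35979354-35979603) and Spry4 on the reverse strand (chr18:30702547-30702796).
Dusp1: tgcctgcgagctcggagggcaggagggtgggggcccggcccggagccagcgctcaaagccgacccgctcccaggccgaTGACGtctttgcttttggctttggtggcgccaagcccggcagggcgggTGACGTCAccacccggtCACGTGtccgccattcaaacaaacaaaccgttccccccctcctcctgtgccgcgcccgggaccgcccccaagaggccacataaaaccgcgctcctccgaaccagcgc
Dusp6: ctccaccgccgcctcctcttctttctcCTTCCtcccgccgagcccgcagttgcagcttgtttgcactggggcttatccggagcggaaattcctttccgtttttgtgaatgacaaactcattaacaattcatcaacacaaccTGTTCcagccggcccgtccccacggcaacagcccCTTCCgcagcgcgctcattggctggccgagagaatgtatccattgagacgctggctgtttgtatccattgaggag
Spry4: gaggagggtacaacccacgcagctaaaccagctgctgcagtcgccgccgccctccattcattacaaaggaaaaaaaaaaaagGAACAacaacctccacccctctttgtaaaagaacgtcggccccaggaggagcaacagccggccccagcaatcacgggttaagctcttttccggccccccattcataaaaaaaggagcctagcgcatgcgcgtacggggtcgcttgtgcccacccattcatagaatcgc

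The capitals in the Dusp1 promoter mark 3 kinds of match. The complete cAMP response element TGACGTCA, the site of the activity-regulated factor CREB, stood from -124 to -117 relative to the start. The E-box CACGTG, a site of clock and other helix-loop-helix factors, stood from -107 to -102. The short cAMP element TGACG was found from -172 to -168, besides the 2 copies that overlap the complete element. Searched on both strands over windows of 300 bases, the 250 shown and 50 after the start, TGACGTCA was in 1.83% of all 33469 promoter windows, CACGTG in 6.42% and TGACG in 21.2%. Among the 8 genes with a window, only Dusp1 held TGACGTCA or CACGTG, and Dusp1, Dusp5 and Spry2 held TGACG.

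In the Dusp6 promoter the capitals mark CTTCC, the reverse complement of the ETS core GGAAG, from -223 to -219 and from -75 to -71, and TGTTC, the reverse complement of the glucocorticoid receptor core GAACA, from -109 to -105. The Spry4 promoter held GAACA from -168 to -164. ETS factors are the transcription factors through which ERK acts on many target genes. Both cores are common by their shortness, with GGAAG in 70.1% and GAACA in 45.3% of all windows. GGAAG was found in the windows of Dusp5, Dusp6, Dusp8 and Spry2, and GAACA in those of Dusp6, Spry2 and Spry4. The palindromic glucocorticoid response element, a pair of cores that face each other, was in 0 of the 8 genes' windows and in 0.439% of all windows. At so low a share, its absence from the windows of 8 genes says little. Sequence outside the windows of 300 bases was not searched.

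Levels per transcript length, in the authors' FPKM (fragment density along a transcript, scaled for depth), can be set between genes within sham. Dusp8, which acts mainly on JNK and p38, stood highest of the 9 at 62.4 ± 1.86 FPKM (SD, n = 2). Spry2 followed at 18.2 ± 0.325 FPKM, Dusp7 at 15.1 ± 0.486 FPKM and Dusp1 at 13.9 ± 0.670 FPKM. Dusp6 stood at 9.39 ± 1.15 FPKM. Dusp4 and Spry4 had nearly the same level per length, 4.32 and 4.13 FPKM. Spry1 at 1.87 FPKM and Dusp5 at 0.735 FPKM were lowest, and their libraries held only 22 to 60 and 28 to 55 fragments each. Among related phosphatases, only Dusp3 at 85.0 FPKM and Dusp26 at 70.6 FPKM stood above Dusp8, and Dusp2 and Dusp9 were lowest at 0.579 and 0.0483 FPKM.

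**Figure D1:**
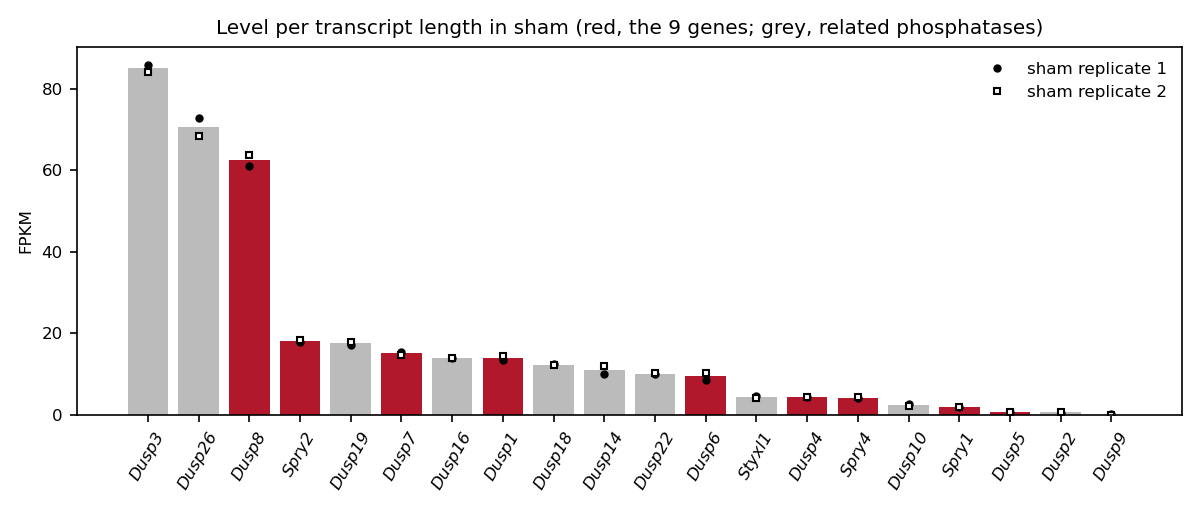
Level per transcript length (FPKM, vertical axis from 0) of the 9 genes (red bars) and of related phosphatases (grey bars) in sham, ordered by level; bars are means and symbols the 2 sham libraries. Dusp8 stands at 62.4 FPKM, and the other 8 genes lie between 0.735 and 18.2 FPKM.

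The genes divided into a variable and a steady group over the 12 libraries. Dusp1 spanned 14.5 to 38.2 CPM, a 2.64-fold range. Spry4 spanned 18.5 to 31.2 CPM (1.69-fold) and Dusp6 16.8 to 27.9 CPM (1.66-fold), against a median range of 1.21-fold and an upper quartile of 1.31-fold over 8834 genes with a mean of at least 10 CPM. Dusp8 (1.19-fold), Spry2 (1.18-fold) and Dusp7 (1.12-fold) were within that median. Dusp4 spanned 4.21 to 7.35 CPM (1.75-fold), Spry1 1.02 to 1.83 CPM (1.79-fold) and Dusp5 1.29 to 1.83 CPM (1.42-fold), all under the mean of 10 CPM that this comparison set.

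**Figure D2:**
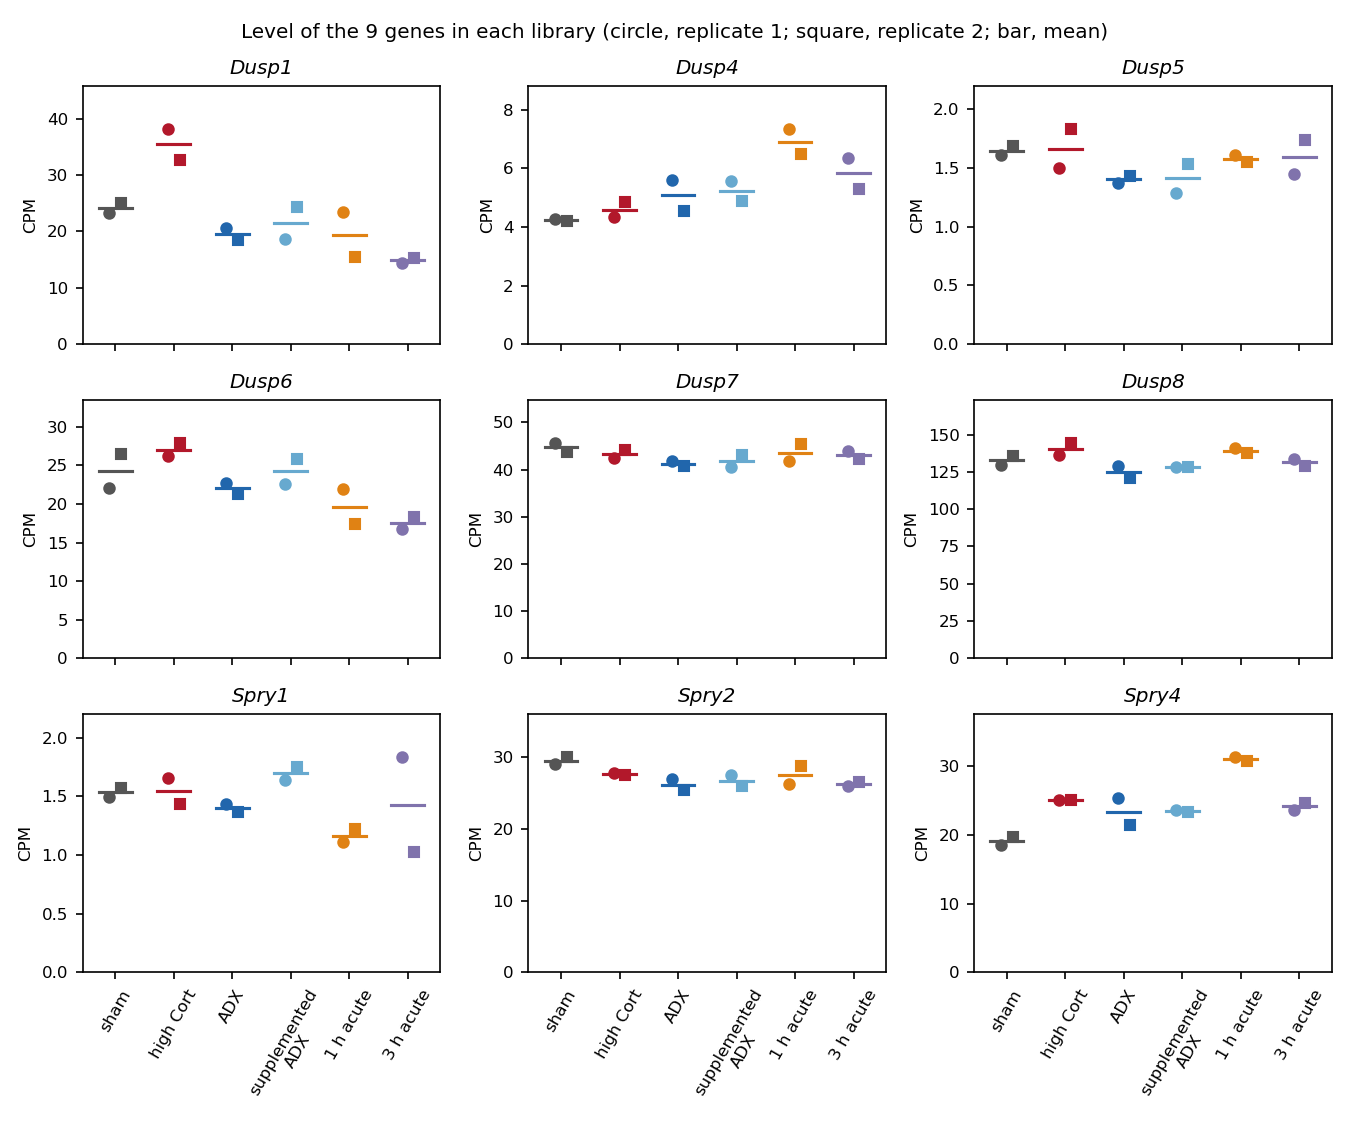
CPM (vertical axes from 0) of each of the 9 genes in the 12 libraries by group; circles are replicate 1, squares replicate 2 and bars the mean of 2. Dusp1 is highest in both high Cort libraries, Spry4 and Dusp4 are highest in both 1 h acute libraries, and Dusp7, Dusp8 and Spry2 are nearly level.

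Few of the 9 genes were called in any comparison. In high Cort against sham, 1 of 9 was called (Spry4, higher), where 0.871% of all genes were called and 0.513% were higher. Against ADX, high Cort had 1 of 9 called (Dusp1, higher), where 5.77% of all genes were called and 3.50% were higher. The 1 h acute libraries against sham had 2 of 9 called (Spry4 and Dusp4, higher), where 12.8% of all genes were called and 5.56% were higher. For 3 h acute against sham, 2 of 9 were called (Spry4 higher, Dusp6 lower), where 7.98% of all genes were called, 3.41% higher and 4.57% lower. The 3 comparisons with sham share its libraries. The median log2 fold change of the 9 genes was 0.08, 0.13, -0.055 and -0.053 in these 4 comparisons, beside 0.01, 0.01, -0.003 and -0.004 over all genes tested.

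No gene of the 9 was called by edgeR in the other 5 comparisons. ADX against sham (0.233% of all genes called) had 2 of 9 at an unadjusted p under 0.05, where 12.8% of all genes were, and DESeq2 called 0 of those to which it gave an adjusted p. Supplemented ADX against ADX (0.0311% called) had 0 of 9 at an unadjusted p under 0.05, where 4.05% of all genes were, and 0 called by DESeq2. For 1 h acute against supplemented ADX (0.0467% called), 5 of 9 had an unadjusted p under 0.05 where 14.7% of all genes did, and DESeq2 called 1, Spry4. In 3 h acute against supplemented ADX (0.00778% called), 2 of 9 had an unadjusted p under 0.05 where 12.5% of all genes did, and DESeq2 called 0. For 3 h against 1 h acute (0.0233% called), the unadjusted count was 1 of 9 beside 10.6% of all genes, and DESeq2 again called 0 of those with an adjusted p. limma on FPKM called 0 in each of these that lies within 1 run of the authors' software. The runs were inferred from condition codes that repeat after 6 libraries. Supplemented ADX and ADX lie in different inferred runs, so run and group cannot be told apart in that comparison.

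**Figure D3:**
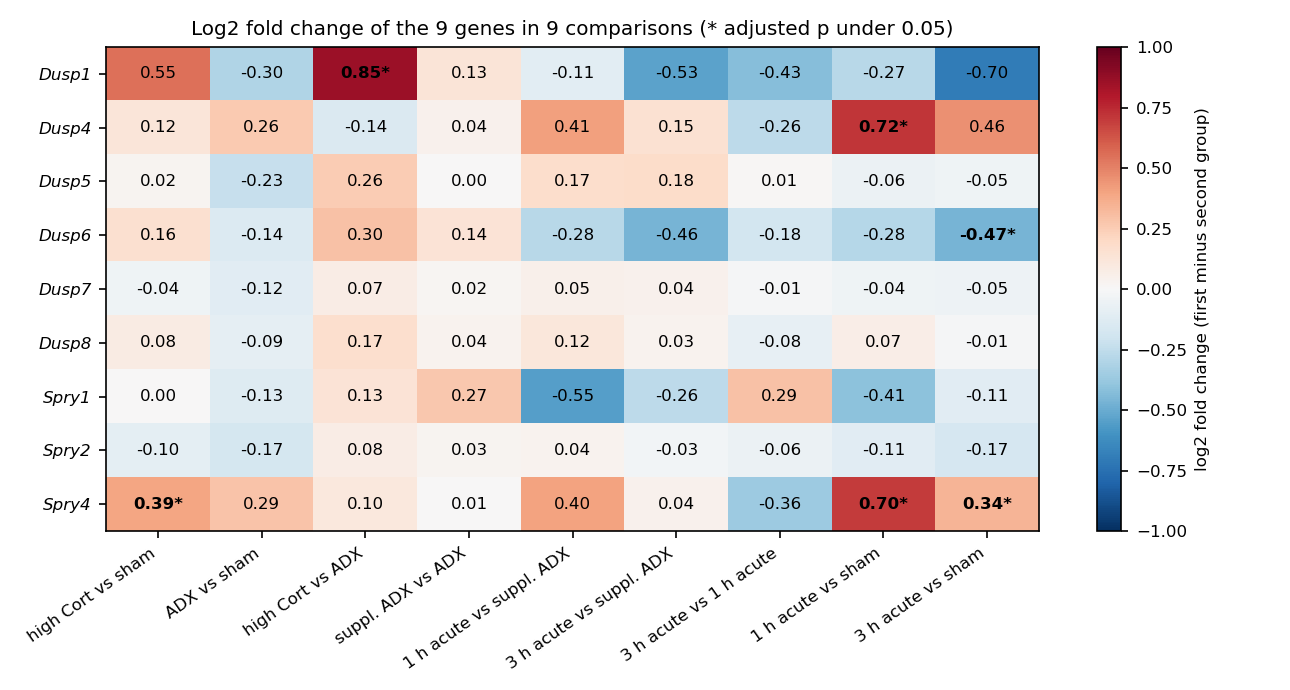
Log2 fold change of each of the 9 genes (rows) in the 9 comparisons (columns, first group minus second), coloured from -1 (blue) to 1 (red); bold with an asterisk marks an adjusted p under 0.05. The marked values are Spry4 in 3 comparisons, and Dusp1, Dusp4 and Dusp6 in 1 each.

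Dusp1, the nuclear phosphatase that acts on p38, JNK and ERK, was highest after long-term corticosterone. Its level was 38.2 and 32.7 CPM in the high Cort libraries, 23.2 and 25.0 CPM in sham, and 20.7 and 18.5 CPM in ADX. Supplemented ADX stood at 18.7 and 24.4 CPM. Both high Cort libraries were thus above every other library, and both ADX libraries below both sham libraries. Dusp1 rose in high Cort against ADX (log2 fold change 0.85 ± 0.18, mean 35.4 against 19.6 CPM, adjusted p = 0.0313). Against sham the difference of 0.55 ± 0.18 did not pass (95% interval 0.14 to 0.96, adjusted p = 0.367), nor did ADX against sham at -0.30 ± 0.19 (interval -0.72 to 0.13, adjusted p = 0.548). The call against ADX was lost without each of the 4 libraries in turn (adjusted p between 0.0799 and 0.200, log2 fold change 0.73 to 0.95). Against sham, DESeq2 called it (adjusted p = 0.0373). In high Cort against ADX, 12 of 13 thalamus markers were also higher in mean.

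Dusp1 had its lowest mean in 3 h acute (14.8 CPM). Its mean in 1 h acute (19.4 CPM) was close to that of ADX (19.6 CPM), and the libraries of these groups overlapped. Dusp1 stood at 23.4 and 15.5 CPM in 1 h acute and at 14.5 and 15.2 CPM in 3 h acute. The 2 libraries of 1 h acute differed more than any other pair for this gene, and both 3 h acute libraries were below every library of the other groups. In 3 h acute, 27.6% of all genes were lower without overlap against sham and 23.6% against supplemented ADX. Against supplemented ADX the difference was -0.11 ± 0.19 at 1 h (interval -0.54 to 0.33, adjusted p = 0.840) and -0.53 ± 0.20 at 3 h (interval -0.99 to -0.08, adjusted p = 0.341). Against sham, 3 h acute gave -0.70 ± 0.20 (adjusted p = 0.0729), which DESeq2 called (adjusted p = 0.000826). With a thalamus score as covariate it was -0.29 (adjusted p = 0.861), and all 13 thalamus markers were lower in mean in 3 h acute than in sham. The 1 h value differed by library: without 1 h acute replicate 1 the difference from sham was -0.63 (adjusted p = 0.0291) and without replicate 2 it was -0.04 (adjusted p = 0.938).

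Dusp4, a nuclear phosphatase induced by ERK, showed another order. Its level was 7.35 and 6.49 CPM in 1 h acute and 6.36 and 5.30 CPM in 3 h acute, against 4.28 and 4.21 CPM in sham. It stood at 5.58 and 4.88 CPM in supplemented ADX, 5.61 and 4.55 CPM in ADX, and 4.33 and 4.86 CPM in high Cort. The 1 h acute libraries were above all others, and both sham libraries were below all others. Of all genes, 27.5% were higher without overlap in 1 h acute against sham. Dusp4 was 1.65-fold higher in 1 h acute than in sham (0.72 ± 0.15, adjusted p = 0.00813). Against supplemented ADX the difference was 0.41 ± 0.14 (interval 0.12 to 0.71, adjusted p = 0.208), and 3 h acute against sham gave 0.46 ± 0.16 (adjusted p = 0.0837). The call at 1 h was lost without sham replicate 2 (adjusted p = 0.0707) and in a fit of the 4 libraries alone (adjusted p = 0.0863). Each of 13 thalamus markers was lower in mean in both acute groups than in sham.

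Dusp5, a nuclear phosphatase specific for ERK, was called in no comparison. Its levels lay between 1.29 CPM in supplemented ADX replicate 1 and 1.83 CPM in high Cort replicate 2. The largest differences were 0.26 ± 0.21 in high Cort against ADX (adjusted p = 0.540) and -0.23 ± 0.21 in ADX against sham (adjusted p = 0.696). The interval of the former was -0.19 to 0.70, at 28 to 55 fragments per library.

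Dusp6 and Dusp7, the cytoplasmic phosphatases that act on ERK, had different ranges. Dusp6, which is transcribed in response to ERK activity, stood at 22.1 and 26.4 CPM in sham and at 26.2 and 27.9 CPM in high Cort. The 1 h acute level was 22.0 and 17.4 CPM, and that of 3 h acute 16.8 and 18.3 CPM. ADX had 22.8 and 21.3 CPM and supplemented ADX 22.6 and 25.8 CPM. Both 3 h acute libraries were below all libraries of sham, high Cort, ADX and supplemented ADX. Of all genes, 27.6% were lower without overlap in 3 h acute against sham and 23.6% against supplemented ADX. Dusp6 was 1.38-fold lower in 3 h acute than in sham (-0.47 ± 0.12, adjusted p = 0.0322). Against supplemented ADX the 3 h difference was -0.46 ± 0.12 but did not pass (interval -0.71 to -0.21, adjusted p = 0.186), and high Cort against ADX gave 0.30 ± 0.11 (adjusted p = 0.135). The call at 3 h was lost without sham replicate 2 (-0.32, adjusted p = 0.255), without 3 h acute replicate 1 (adjusted p = 0.158) and without 3 h acute replicate 2 (adjusted p = 0.139). Without 1 h acute replicate 1, the 1 h difference passed against supplemented ADX (-0.48, adjusted p = 0.0433) and against sham (-0.48, adjusted p = 0.0194). Without 1 h acute replicate 2 it was -0.14 in both (adjusted p = 0.862 and 0.603). The mean level of the thalamus markers was lower in both acute groups than in sham and in supplemented ADX, with no overlap of libraries. This applies to the Dusp6 comparisons with both. With a thalamus score as covariate, the Dusp6 difference from supplemented ADX was -0.02 at 1 h and -0.28 at 3 h.

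Dusp7 lay between 40.6 and 45.6 CPM in all 12 libraries. No group was apart from all others, though both ADX libraries were below those of sham and high Cort. In ADX against sham, 25% of all genes were lower without overlap. The Dusp7 differences ran from -0.12 ± 0.06 in ADX against sham (interval -0.24 to 0.01) to 0.07 ± 0.06 in high Cort against ADX (interval -0.05 to 0.20). Dusp8 was at 136 and 144 CPM in high Cort, 141 and 137 CPM in 1 h acute, 129 and 136 CPM in sham and 129 and 121 CPM in ADX. Supplemented ADX had 128 CPM in both libraries, and 3 h acute 134 and 129 CPM. Its largest difference was 0.17 ± 0.05 in high Cort against ADX, where the test narrowly missed the threshold (interval 0.07 to 0.27, adjusted p = 0.0516). The groups did not overlap for Dusp8, and 29.7% of all genes were higher without overlap in that comparison.

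Spry4, which restrains ERK activation by growth factors, was the gene called most often. Its level was 18.5 and 19.7 CPM in sham, the lowest of all groups, and 31.2 and 30.7 CPM in 1 h acute, the highest. High Cort had 25.1 CPM in both libraries, ADX 25.3 and 21.4 CPM, supplemented ADX 23.6 and 23.3 CPM, and 3 h acute 23.7 and 24.6 CPM. Only supplemented ADX and ADX overlapped among groups next to each other in the order of means. Every library of the other 5 groups was above both sham libraries. In the comparisons made with sham, 20.9% to 27.5% of all genes were higher without overlap.

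Spry4 was 1.31-fold higher in high Cort than in sham (0.39 ± 0.08, adjusted p = 0.0271), 1.62-fold higher in 1 h acute (0.70 ± 0.08, adjusted p = 0.000447) and 1.26-fold higher in 3 h acute (0.34 ± 0.08, adjusted p = 0.0251). In ADX it was 0.29 ± 0.08 above sham without passing (interval 0.12 to 0.46, adjusted p = 0.149), with 0.16 without ADX replicate 1 and 0.41 without ADX replicate 2. High Cort against ADX gave 0.10 ± 0.08 (interval -0.06 to 0.27, adjusted p = 0.491). Supplemented ADX against ADX, which crosses the inferred software runs, gave 0.01 ± 0.08 (interval -0.16 to 0.17). The 1 h call held without each of the 4 libraries (adjusted p between 0.000415 and 0.00468). The high Cort and 3 h calls were lost without each of the 4 libraries in turn (adjusted p from 0.0991 to 0.235 and from 0.0585 to 0.163). In high Cort against sham, all 8 paraventricular neuron markers were lower in mean, with 1 called and 7 at an unadjusted p under 0.05 (median -0.447), and their part in the Spry4 difference was not tested.

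Within the groups of the inferred second software run, the level of Spry4 was highest at 1 h. Against supplemented ADX, 1 h acute was 1.32-fold higher (0.40 ± 0.08, interval 0.241 to 0.565), without passing (adjusted p = 0.065). The adjusted p was under the threshold in DESeq2 (0.0265), with no filter on low counts (0.0461) and without 1 h acute replicate 1 (0.0366), and above it in the other alternatives, up to 0.679 without supplemented ADX replicate 2 and 0.956 with a thalamus score as covariate. The log2 fold change stayed between 0.34 and 0.43 over these alternatives, and all 13 thalamus markers were lower in mean at 1 h (median -0.632). From 1 h to 3 h it was lower by a log2 difference of -0.36 ± 0.08 (interval -0.53 to -0.19, adjusted p = 0.159). At 3 h it was 0.04 ± 0.08 from supplemented ADX (interval -0.13 to 0.21, adjusted p = 0.855). Few genes were called in these comparisons, and the unadjusted p for Spry4 was 9.02e-05 at 1 h.

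The other Sprouty genes were called nowhere. Spry2 was at 29.1 and 30.0 CPM in sham and between 25.4 and 28.8 CPM in the other groups, so both sham libraries were above all others. In the comparisons made with sham, 16.9% to 29.1% of all genes were lower without overlap. The Spry2 differences from sham were small, -0.17 ± 0.07 in ADX (interval -0.31 to -0.03, adjusted p = 0.298) and -0.17 ± 0.07 in 3 h acute (interval -0.32 to -0.03, adjusted p = 0.134). Spry1 was between 1.02 and 1.83 CPM, both ends within 3 h acute. Its 1 h acute level was 1.11 and 1.22 CPM against 1.64 and 1.75 CPM in supplemented ADX, a difference of -0.55 ± 0.25 (interval -1.09 to -0.02, adjusted p = 0.324).

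Markers of the neighbouring thalamus moved with several of these values. A thalamus score, the mean log2 CPM of 13 markers, was 6.27 and 6.84 in the sham libraries and 6.65 to 6.69 in high Cort, but 6.06 to 6.21 in ADX and 6.14 to 6.17 in supplemented ADX. It was 5.12 to 5.84 in 1 h acute and 5.67 to 5.78 in 3 h acute. Against sham, 9 of the 13 markers fell at 1 h and 0 rose, and no marker was at 0. In 3 h acute against sham 13 of 13 were lower in mean, with 1 called. Of 12 general neuron markers, 6 fell and 1 rose at 1 h and 4 fell at 3 h. In high Cort against ADX 12 of 13 were positive with 0 called, and of 8 paraventricular neuron markers 6 fell.

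Over the 12 libraries, Pearson's r of log2 CPM with the score was 0.87 for Dusp6 (Spearman's rho 0.82), 0.79 for Dusp1 (rho 0.78), -0.78 for Dusp4 (rho -0.87) and -0.57 for Spry4 (rho -0.49). Without the 2 libraries farthest from the median score, 1 h acute replicate 2 and sham replicate 2, r was 0.85, 0.87, -0.72 and -0.20 in the same order. The other 5 genes had r between -0.13 and 0.41. These are descriptions of 9 relations with no p, since libraries of a group share their treatment as well as their dissection. Of the 36 pairs among the 9 genes, Dusp1 with Dusp6 had the highest r (0.89, rho 0.91) and Dusp4 with Spry4 the next (0.80, rho 0.73).

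**Figure D4:**
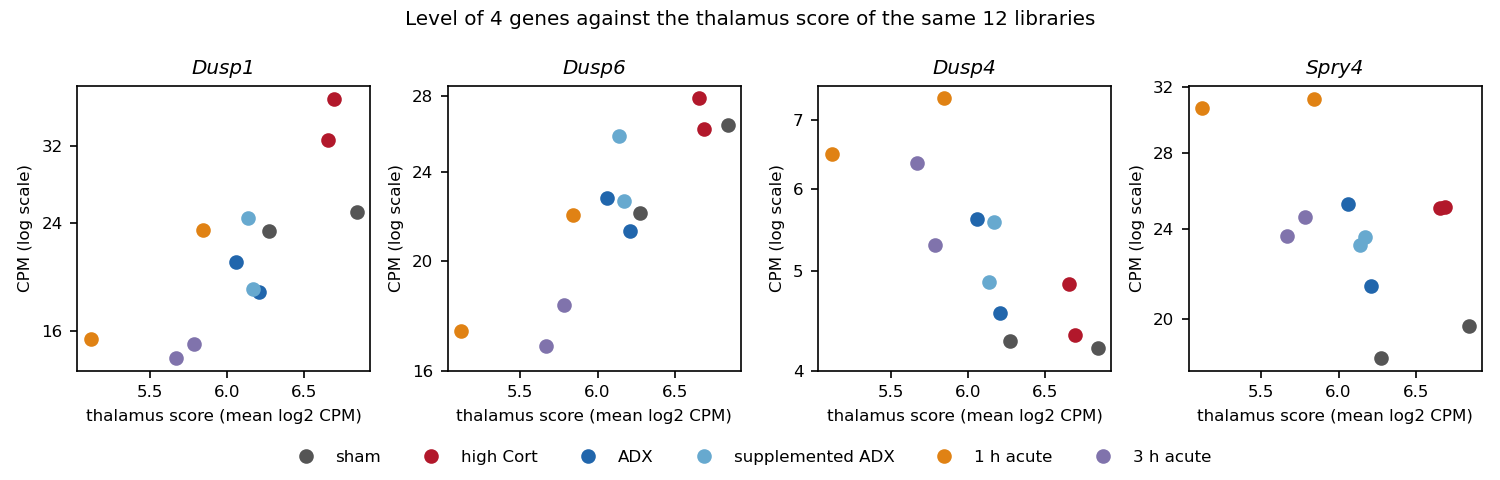
CPM (log scale) of Dusp1, Dusp6, Dusp4 and Spry4 against the thalamus score (mean log2 CPM of 13 markers) in the 12 libraries, coloured by group. Dusp1 and Dusp6 are higher where the score is higher (r = 0.79 and 0.87), Dusp4 is lower (r = -0.78), and Spry4 is apart at 1 h acute and at sham.

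With the thalamus score as a covariate in the same model, Dusp6 in 3 h acute against sham went from -0.47 to -0.11 (adjusted p = 0.905) and Dusp1 in high Cort against ADX from 0.85 to 0.59 (adjusted p = 0.220). Spry4 in high Cort against sham kept its size and its call (0.39, adjusted p = 0.0217). Spry4 in 1 h acute against sham kept its size (0.74) but not its call (adjusted p = 0.186), and so did Dusp4 (0.78, adjusted p = 0.996) and Spry4 at 3 h (0.37, adjusted p = 0.558). In the acute comparisons no library overlapped sham in the score, and the count of all genes called went from 1641 to 3 at 1 h and from 1026 to 5 at 3 h. Score and group cannot be told apart there, nor can the inferred software run, which also differs between sham and both acute groups. The score did not overlap either between high Cort (6.65 to 6.69) and ADX (6.06 to 6.21), or between supplemented ADX (6.14 to 6.17) and each acute group. In those comparisons, too, score and group cannot be told apart.

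Related phosphatases showed 1 gene that was called repeatedly. Dusp3, an atypical phosphatase that acts on ERK and JNK, was at 351 and 345 CPM in sham, 404 and 413 CPM in high Cort, and 289 and 290 CPM in ADX. Supplemented ADX had 321 and 317 CPM. It rose in high Cort (0.23 ± 0.04, adjusted p = 0.0178) and fell in ADX (-0.26 ± 0.04, adjusted p = 0.0233), both against sham. The 3 levels kept the order of high Cort, sham and ADX, as those of Dusp1 did. The mean thalamus score kept that order too (6.67, 6.56 and 6.13), and it was lower still at 1 h (5.48) and 3 h acute (5.73). Dusp3 did not keep to the score over all groups. It stood at 308 and 281 CPM in 1 h acute and at 304 and 309 CPM in 3 h acute. Both 3 h acute libraries were thus above both ADX libraries, and so were both of supplemented ADX, where the mean score was 6.15. Dusp3 also fell in 1 h acute (-0.24 ± 0.04, adjusted p = 0.00526) and 3 h acute (-0.18 ± 0.04, adjusted p = 0.0242) against sham. Of the 10 tested genes of this list, 1 was called in each comparison with sham, Dusp3, and in high Cort against ADX Dusp3 rose and Dusp18 fell (-0.22 ± 0.06, adjusted p = 0.0381).

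Other inhibitors of receptor tyrosine kinase and Ras signalling were represented by 18 tested genes. Errfi1, which binds and inhibits the EGF receptor and is a known glucocorticoid target, was the 1 called in high Cort against sham. It rose from 36.4 and 34.8 CPM in sham to 47.3 and 41.8 CPM (0.32 ± 0.07, adjusted p = 0.0283). Spred3, of the Sprouty-related family that blocks Raf activation, was at 19.2 and 16.1 CPM in sham, 25.5 and 28.1 CPM in 1 h acute, and 29.2 and 24.3 CPM in 3 h acute. It rose at 1 h (0.59 ± 0.11, adjusted p = 0.00511) and at 3 h (0.60 ± 0.11, adjusted p = 0.00787) against sham. Spred2 rose at 1 h (0.22 ± 0.06, adjusted p = 0.0367). The phosphatase Ptpn5, which inactivates ERK and p38 in neurons, rose at 3 h (0.21 ± 0.05, adjusted p = 0.0159). In high Cort against ADX Errfi1 (0.31 ± 0.06, adjusted p = 0.0111) and Pebp1, a Raf inhibitor (0.16 ± 0.04, adjusted p = 0.0353), rose, and Il17rd, an inhibitor of FGF signalling (-0.39 ± 0.10, adjusted p = 0.0314), fell. The counts were 2 higher and 0 lower of 18 in each acute group against sham, and 0 in ADX against sham and in each comparison with supplemented ADX.

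Genes of the ERK cascade, which these proteins restrain, had a median log2 fold change between -0.053 and 0.005 over the 9 comparisons. Of its 23 tested genes, 0 were called in high Cort or ADX against sham, where 5 and 3 had an unadjusted p under 0.05. Against ADX, high Cort had 1 that rose, Ptpn11 (0.27 ± 0.04, adjusted p = 0.00163), a phosphatase that relays growth factor signals to Ras. Against sham, Sos1 and Rps6ka2 rose at 1 h (0.18 ± 0.05 each, adjusted p = 0.0434 and 0.0233), and in 3 h acute Rps6ka3, a kinase that ERK activates, fell (-0.31 ± 0.07, adjusted p = 0.0169). Of 22 tested genes of the JNK and p38 cascade, the JNK genes Mapk8 and Mapk9 rose in high Cort against ADX (0.25 ± 0.07, adjusted p = 0.0434, and 0.19 ± 0.05, adjusted p = 0.0287) and fell in 3 h acute against sham (-0.27 ± 0.07, adjusted p = 0.0312, and -0.25 ± 0.05, adjusted p = 0.0109). The counts of that cascade were 2 higher and 1 lower in the former comparison and 1 higher and 3 lower in the latter. The thalamus score differed in the same direction as both JNK genes.

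Among 31 tested growth factors and receptors, 3 fell in high Cort against sham and 0 rose. Kdr, the main receptor of vascular endothelial growth factor, fell (-0.85 ± 0.08, adjusted p = 6.42e-05), and so did its ligand Vegfa (-0.24 ± 0.05, adjusted p = 0.0208) and Pdgfrb, a receptor of pericytes (-0.30 ± 0.06, adjusted p = 0.0246). Kdr and Pdgfrb are genes of blood vessel cells, and 4 of 17 endothelial and mural markers fell in the same comparison, Kdr and Pdgfrb themselves among them. In ADX against sham 0 of the 31 were called, with 5 at an unadjusted p under 0.05. Against ADX, the receptors Igf1r (0.39 ± 0.07, adjusted p = 0.00668) and Ntrk2 (0.22 ± 0.04, adjusted p = 0.00733), for insulin-like growth factor and for brain-derived neurotrophic factor, rose in high Cort, where 3 were higher and 2 lower. Against sham 4 rose and 3 fell at 1 h, and 2 rose and 2 fell at 3 h. Fgf10 fell at both times (-0.90 and -0.74) and Ntrk3, the receptor of neurotrophin-3, rose (0.27 and 0.20).

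Transcripts known to be induced through ERK were compared with the 9 genes, while the activity of ERK itself was not measured. At 1 h against sham, 8 of 26 rose and 3 fell (median log2 fold change 0.30, against -0.003 over all genes tested and -0.055 over the 9 genes). Nr4a3, an orphan nuclear receptor, was at 5.88 and 8.93 CPM in sham and 23.2 and 26.0 CPM in 1 h acute (1.71 ± 0.21, adjusted p = 0.00345). Nr4a1 rose by 0.95 ± 0.16 (adjusted p = 0.00513), and Fosl2, an AP-1 subunit, by 0.96 ± 0.17 (adjusted p = 0.00520). In 3 h acute against sham 2 rose and 2 fell (median -0.044). Fosl2 rose there too (0.73 ± 0.18, adjusted p = 0.0269), and Etv1, an ETS factor, fell from 117 and 130 CPM to 73.6 and 70.6 CPM (-0.77 ± 0.17, adjusted p = 0.0361). Etv1 was also below sham in ADX (93.3 and 97.6 CPM) and in supplemented ADX (75.3 and 93.5 CPM), and above it in high Cort (153 and 150 CPM). In each acute comparison with sham, group, thalamus score and inferred software run cannot be told apart.

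Supplemented ADX shares the inferred software run with both acute groups. Against it, 0 of these 26 were called at 1 h by edgeR, 10 had an unadjusted p under 0.05, and 19 had a positive difference (median 0.21). At 3 h 0 were called, 4 had an unadjusted p under 0.05 and the median was -0.055. Nr4a3 was at 9.11 and 9.98 CPM in supplemented ADX and 9.20 and 9.08 CPM in 3 h acute, so that its 1 h level stood above both (1.36 ± 0.20 at 1 h, adjusted p = 0.065). Spry4 and Dusp4 had positive differences of 0.40 and 0.41 at 1 h, while Dusp6, which the same kinase is known to induce, had -0.28 ± 0.11 (interval -0.52 to -0.04, adjusted p = 0.289). With the thalamus score as covariate the Dusp6 value was -0.02, and those of Spry4 and Dusp4 were 0.43 and 0.45. None of these values passed the test. The score of 1 h acute (5.12 to 5.84) did not overlap that of supplemented ADX (6.14 to 6.17), so score and group cannot be told apart here. Of the 26, high Cort against sham had 0 called and 4 with an unadjusted p under 0.05.

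**Figure D5:**
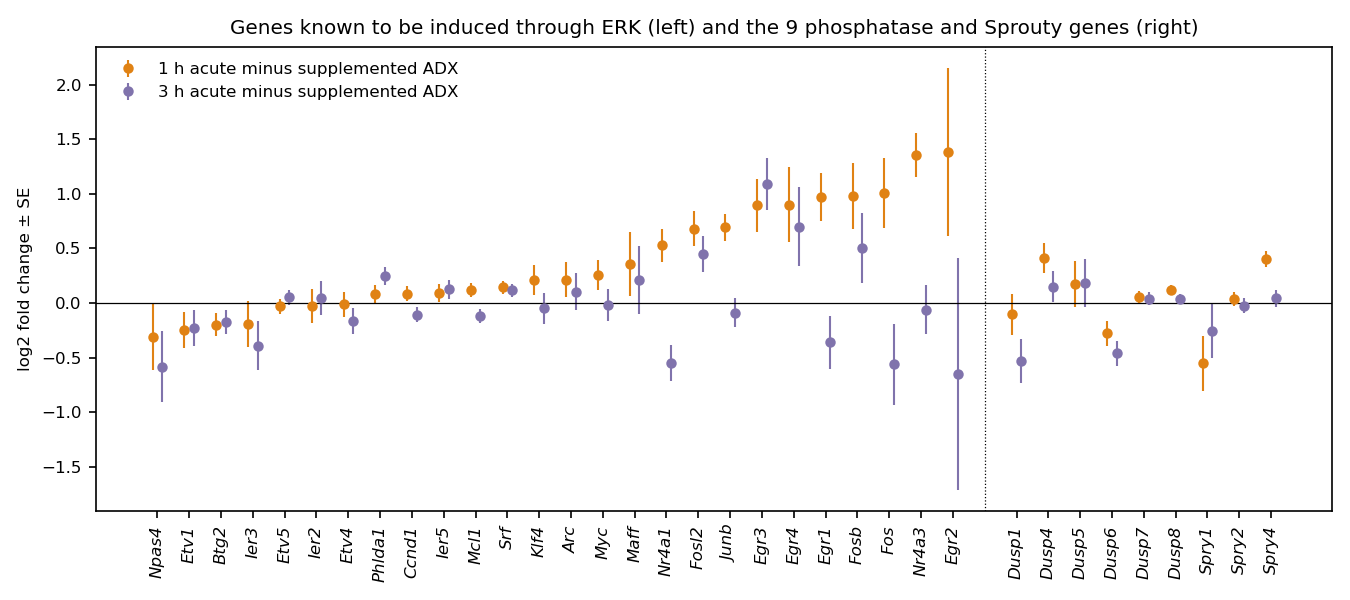
Log2 fold change (± SE) against supplemented ADX at 1 h (orange) and 3 h (purple) after acute corticosterone, for 26 genes known to be induced through ERK (left of the dotted line, ordered by the 1 h value) and the 9 genes (right). At 1 h 19 of the 26 are above 0, with Spry4 and Dusp4 at 0.40 and 0.41 on the right; 0 of the genes drawn were called by edgeR.

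As a check of the treatment, 8 of 14 known glucocorticoid targets rose in high Cort against sham and 0 fell, among them Sgk1 (1.35 ± 0.13, adjusted p = 0.00111) and Per1 (0.90 ± 0.08, adjusted p = 9.21e-05). In 1 h acute against supplemented ADX 1 rose, Per1 (0.77 ± 0.08, adjusted p = 0.00174), and in 3 h acute 0 were called with 2 at an unadjusted p under 0.05. None of these targets was called in ADX against sham or in supplemented ADX against ADX. Sgk1 was at 24.7 and 27.4 CPM in ADX and at 26.9 and 26.6 CPM in supplemented ADX. Per1 was at 55.2 and 49.4 CPM in ADX, beside 40.2 and 48.7 CPM in sham. The list thus gave no check of the removal or the supplementation. The median of the 9 genes in high Cort against sham was 0.08, beside 0.46 for these targets and 0.01 for all genes tested.

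The genes whose log2 CPM was most like each of the 9 over the 12 libraries, out of 10961 searched, are given as a description. For Spry4 they were Per2 (r = 0.93), Rbm39 (0.92) and Insr (0.92). Per2, a clock gene, was at 54.8 and 54.4 CPM in sham and 91.0 and 95.6 CPM in 1 h acute, and like Spry4 was lowest in sham and highest in 1 h acute. Dusp1 was most like Azin1 (0.97), Kiaa0408 (0.95) and Fem1c (0.95), and Dusp6 most like Golim4 (0.96), Lmo7 (0.96) and Adgrb3 (0.95). Dusp4 was most like Etv3 (0.95), Vwf (0.93) and Zfp142 (0.92).

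For the steadier and the low genes the highest values were smaller or rested on few fragments. Dusp8 was most like Irs2 (0.90), Faxc (0.89) and Lrrc4 (0.88), and Dusp7 like Efna1 (0.86), Amotl2 (0.83) and Dgcr14 (0.78). Spry2 was most like Lrrc42 (0.82), Amn1 (0.81) and Pc (0.81). Spry1 had Usp3 (0.92), Nanp (0.84) and Taf11 (0.82), and Dusp5 had Azi2 (0.82) and Kctd6 (0.82). Each r was the top of a search over all these genes in libraries that share groups and dissection, and carries no p.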

How the data were processed

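RNA of 12 rat libraries was sequenced on an Illumina HiSeq2000, per the labels. The submitters' processing notes name CASAVA 1.8.2, TopHat2 2.1.1, Cufflinks 2.2.1 and rn6. The deposited tables hold estimated counts of raw fragments per gene, scaled fragments (a signal, not used here) and FPKM. The deposited condition codes repeat after 6 libraries, from which 2 separate software runs of the authors were inferred. FPKM was taken as scaled within each, and was compared only within sham or within a run. Estimated counts were rounded (0.751% were not whole).

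Counts were filtered (edgeR filterByExpr, minimum count 10, minimum total 15), scaled by TMM and fitted in 1 robust quasi-likelihood model of 12 libraries (R 4.3.3, edgeR 4.0.16) with Benjamini-Hochberg adjustment over 12856 genes in each of 9 comparisons. The model was tested on simulated data. Alternatives used DESeq2 1.42.0, limma 3.58.1 on log2 FPKM, other filters and scalings, subsets of libraries, a replicate block and a thalamus score. With 2 libraries against 2, a permutation test cannot go below p = 0.333, and none was run.

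The genes and the gene lists were chosen with earlier results of these data known. Besides the 9 genes, at most the 3 called genes of smallest p per list and comparison, and the 3 genes of highest r with each of the 9, are named. Tcf7l2 and Sim1 are named as tissue markers, relatives of the 9 genes for their level in sham, and Nr4a3 again against supplemented ADX, outside that rule. Protein sequences were not used here, and 2 genes that the rule picks are not reported here.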

Additional observations from a re-analysis of the deposited data

How the results depend on the processing

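Of 987 alternative values for the 81 tests of the 9 genes, 947 kept their side of the threshold, 27 lost a call and 13 gained one. No called value changed its direction, while 55 values over 30 of the tests changed sign without being called in either fit. The number of the 9 genes called was 0 in every alternative for ADX against sham, supplemented ADX against ADX and 3 h against 1 h acute. For high Cort against sham (1 called) it was 2 with DESeq2, 0 with limma on FPKM at either pseudocount, and 0 to 0 when each library was left out. For high Cort against ADX (1 called) it was 0 with no filter, 0 with the thalamus score, 3 in a fit of the 4 libraries alone, and 0 to 0 when each library was left out. For 1 h acute against supplemented ADX (0 called) it was 1 with no filter, 1 with DESeq2 and 0 to 2 when each library was left out. For 3 h acute against supplemented ADX (0 called) it was 1 in a fit of the 4 libraries alone. For 1 h acute against sham (2 called) it was 0 with the thalamus score, 1 in a fit of the 4 libraries alone and 1 to 4 when each library was left out. In 3 h acute against sham (2 called) it was 3 with DESeq2, 3 in a fit of the 4 libraries alone, 0 with the thalamus score and 0 to 1 when each library was left out. The cause of these changes was not tested. Where leaving out a library left 1 in a group, that library was assumed to vary like the other groups.

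Replicate numbers did not pair the libraries: the correlation of their deviations was over 0.1 in 1 of 15 pairs of groups (-0.189 to 0.102, median -0.023). With a replicate block, the number of the 9 genes called in high Cort against ADX was 0 (Dusp1, adjusted p = 0.0551), and no other count of the 9 genes called changed.

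Counts over all genes moved more. High Cort against sham gave 112 called, from 20 with limma on FPKM to 164 with the thalamus score. ADX against sham gave 30, from 4 without ADX replicate 1 to 148 without sham replicate 1. High Cort against ADX gave 742, from 157 without high Cort replicate 1 to 1653 in a fit of the 4 libraries. Supplemented ADX against ADX gave 4 (0 to 33), 3 h acute against supplemented ADX 1 (0 to 154) and 3 h against 1 h acute 3 (0 to 35). Between 1 h acute and supplemented ADX the count of 6 became 624 without 1 h acute replicate 1. The counts of 1641 and 1026 for 1 h and 3 h acute against sham were 3 and 5 with the thalamus score. Dusp5 and Spry1 had the fewest fragments of the 9 genes, down to 28 and 22 in a library.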
